A study of Mus musculus with 7 samples.

Results

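The eosinophil ribonucleases and granule genes were followed in lesional skin of bleomycin-treated mice that carried or lacked OX40L. The set was defined by 10 gene symbols: the ribonucleases Rnase2b, Rnase2a, Ear1, Ear2, Ear6 and Ear10, the granule proteins Prg2 and Epx, the surface lectin Siglecf and the lipoxygenase Alox15. Of these, 7 were named rows of the value table, among 23185 named genes in all, and Ear1, Ear2 and Ear10 were not analysed here. The set was proposed because Rnase2b had been seen to be higher in knockout, so differences of these genes between genotypes are given as a description, without a test. There were 4 ox40l-/- arrays (knockout) and 3 ox40l+/+ arrays (wild type). All samples came from skin of male C57BL/6 mice aged 9 weeks that had received bleomycin, an agent commonly used to induce skin fibrosis, for 3 weeks. No untreated skin was compared. Separate animals are not stated for the samples in the labels, so errors and p-values here reflect sample-to-sample spread that may be technical.

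Eosinophils store cationic proteins in large granules and release them in allergic and parasitic inflammation and in some forms of tissue remodelling. In mice the eosinophil-associated ribonucleases form a family of near copies on chromosome 14 that belongs to the ribonuclease A superfamily, and some of them are also made by other leukocytes. Major basic protein, encoded by Prg2, and eosinophil peroxidase, encoded by Epx, are the other main granule proteins. Siglec-F is a sialic acid-binding lectin found on mouse eosinophils and on alveolar macrophages, and Alox15 encodes the 12/15-lipoxygenase of eosinophils and some macrophages. In skin homogenates, fewer cells of a type and less RNA per cell cannot be told apart.

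The arrays differed in the distribution of their values. The values are log2 expression values per gene after robust multi-array averaging, and each array's median over all probe sets lay between 3.45 and 3.74. Wild type replicate 1 had the widest spread over probe sets (SD 1.72) and wild type replicate 3 the narrowest (SD 1.22), against 1.38 to 1.48 on the other 5 arrays. Skin was recognisable from its markers: 7 of 7 measured keratinocyte genes and 6 of 7 fibroblast genes had means above the median gene, as did 6 of 6 skeletal muscle genes. The targeted gene, Tnfsf4, which encodes OX40L, was below the array median on all 7 arrays and differed by 0.02 (SE 0.31). Whether its probes lie in the deleted part is not known here, so this value checks nothing about the labels.

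Rnase2b lay above the array median on all 7 arrays and was the only measured member, 1 of 7, whose genotypes did not overlap. Its log2 level was 6.58, 6.95, 7.11 and 7.34 on the 4 knockout arrays and 5.97, 6.24 and 5.46 on the 3 wild type arrays. The lowest knockout array was thus above the highest wild type array, by 0.34. The knockout mean was 6.99 ± 0.32 (SD, n = 4) and the wild type mean 5.89 ± 0.39 (SD, n = 3), a difference of 1.10 (SE 0.25) or 2.15-fold. Over all genes, 1.91% did not overlap in either direction and 1.10% lay higher in knockout without overlap, and Rnase2b ranked 17 by size among those 254 genes. Because this difference chose the set, nothing is read from that rank. Without wild type replicates 1 and 3, the difference from the remaining wild type array was 0.76, and with single arrays left out it lay between 0.89 (wild type replicate 3 left out) and 1.28 (wild type replicate 2 left out).

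**Figure D1:**
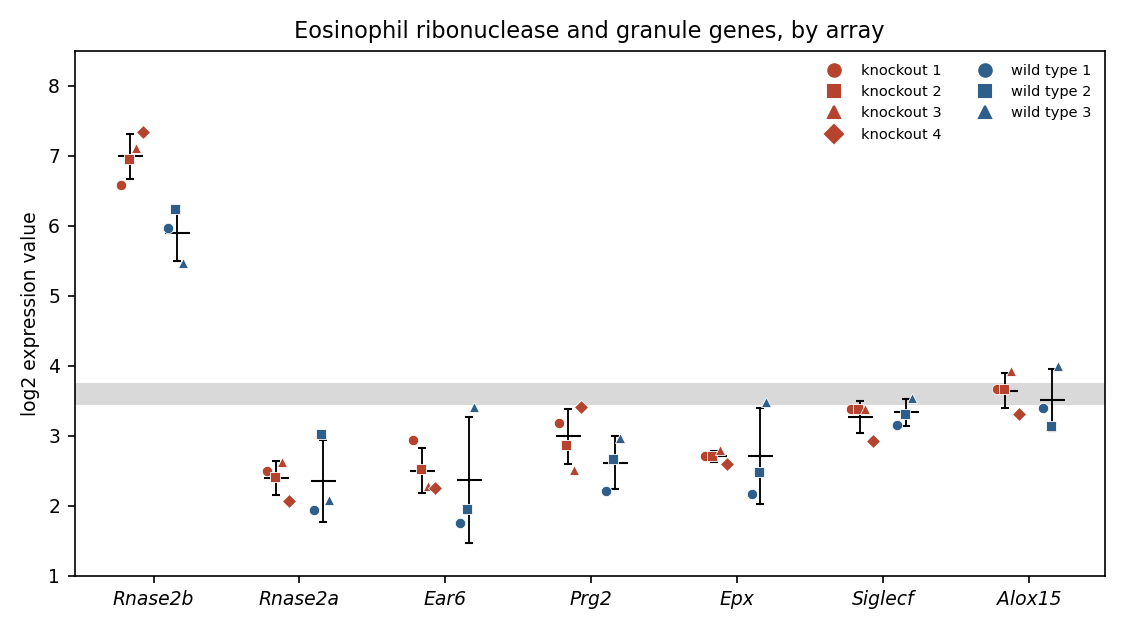
Log2 expression value (y axis) of the 7 measured genes (x axis) on each array, with knockout arrays in red and wild type arrays in blue, bars at the mean ± SD and a grey band over the range of the array medians. Rnase2b lies above the band on all 7 arrays with knockout above wild type, while the other genes overlap between genotypes and lie in or below the band, except Alox15 on knockout replicate 3 (3.92) and wild type replicate 3 (4.00).

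The values of Rnase2b were set beside those of the 856 genes with a mean log2 value from 6 to 7, since the wild type arrays differed in spread. In that range wild type replicates 1, 2 and 3 had median deviations of 0.53, 0.15 and -0.89 from a gene's own mean, and wild type replicate 3 was the lowest array for 69.9% of the genes. Rnase2b deviated by -0.55, -0.28 and -1.06 on the same arrays. Its low value on wild type replicate 3 thus ran the same way as most genes of its brightness, and its low values on replicates 1 and 2 ran the opposite way to the medians. In knockout its deviations were 0.06, 0.43, 0.59 and 0.81, against medians of -0.02 to 0.18. In this range 1.52% of genes were higher in knockout without overlap. Rnase2b was chosen as higher in knockout, so low wild type values follow from that choice and nothing is read from the contrast. The part of the array differences in the values of Rnase2b was not tested.

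Rnase2a, the nearest relative of Rnase2b by name and formerly called Ear11, did not show the difference. Its log2 level was 2.49, 2.41, 2.63 and 2.06 in knockout and 1.94, 3.02 and 2.08 in wild type. All 7 values were below the array medians, the genotypes overlapped and wild type replicate 2 was the highest array. The difference was 0.05 (SE 0.29), and it was -0.62 from wild type replicate 2 alone. Ear6, a further ribonuclease of the family, was at 2.94, 2.52, 2.28 and 2.25 in knockout and at 1.76, 1.95 and 3.41 in wild type, again below every array median. The wild type arrays spanned all the knockout values. The difference of Ear6 was 0.12 (SE 0.41), and it was 0.64 without wild type replicate 3 and -0.18 without wild type replicate 1.

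The upstream sequences of these genes show how alike the copies are. The 250 bases before each annotated start came from a set of RefSeq promoters (build GRCm38.p6) that held 8 of the 10 genes. They are printed 5′ to 3′ for Rnase2b, Rnase2a and Ear6, the 3 measured ribonucleases among the 10 genes, in which array values differed. Rnase2b lies at chr14:51162010-51162259 on the plus strand, Rnase2a at chr14:51256113-51256362 on the minus strand and Ear6 at chr14:51853518-51853767 on the plus strand. In Rnase2b the capitals mark the match to GATAA, read on the other strand. In Rnase2a and Ear6 they mark bases that differ from Rnase2b, or are added to it, between the aligned ends.
Rnase2b: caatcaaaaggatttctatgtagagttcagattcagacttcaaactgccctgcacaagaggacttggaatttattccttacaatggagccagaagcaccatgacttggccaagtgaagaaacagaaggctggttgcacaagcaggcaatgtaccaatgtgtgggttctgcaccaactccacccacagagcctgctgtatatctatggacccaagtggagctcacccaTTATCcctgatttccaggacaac
Rnase2a: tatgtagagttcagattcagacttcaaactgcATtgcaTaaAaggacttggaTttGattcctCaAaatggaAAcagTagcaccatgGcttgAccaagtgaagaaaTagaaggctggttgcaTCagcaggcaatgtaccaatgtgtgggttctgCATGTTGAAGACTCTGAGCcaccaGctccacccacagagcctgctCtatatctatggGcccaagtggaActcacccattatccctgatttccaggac
Ear6: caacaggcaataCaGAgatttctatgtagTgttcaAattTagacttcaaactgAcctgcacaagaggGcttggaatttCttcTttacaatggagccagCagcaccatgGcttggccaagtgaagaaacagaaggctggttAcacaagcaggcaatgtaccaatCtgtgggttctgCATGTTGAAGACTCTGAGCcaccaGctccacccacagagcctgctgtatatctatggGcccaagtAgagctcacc
Rnase2a matched Rnase2b at 211 of 231 aligned bases (91.3%) and Ear6 at 207 of 224 (92.4%), and both carry the same long added stretch. Over the 6 ribonuclease genes the 15 pairs were 85.7% to 99.2% identical, the most alike being Ear1 and Ear2 (246 of 248 bases). Rnase2b separated the genotypes, and the other 2 printed copies, Rnase2a and Ear6, did not. Probes of near copies can cross-hybridise, so each value belongs to its probe set.

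Letters of 5 motifs were searched on both strands in the window from 250 bases before to 50 after each start. GATAA, the core bound by GATA factors such as GATA-1 of the eosinophil lineage, was found in 6 of 6 ribonuclease genes and in 25.8% of 27025 promoters. Counted from the annotated start, it began at -23 in Rnase2b, at -20 in Rnase2a and at base 3 in Ear6. CCAAT was found in 6 of 6 and in 37.9% of promoters, and TTNNGCAA, a C/EBP-like pattern, in 5 of 6 and in 10.8%, with no match in Ear6. GGAAGT, an ETS-type core, was found in 1 of 6, Ear10, and in 24.1% of promoters, and TATAAA in 0 of 6 and in 14.2%. Across the 6 genes, 0 matches of the 3 patterns named before these overlapped another. The genes are near copies, so these are not separate occurrences, and a match is a description only.

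On chromosome 14 the immediate neighbour of Rnase2b, Rnase1, and the nearby gene Ang also lay higher in knockout on every array. Over all genes, 1.10% lay higher in knockout without overlap. Rnase1, the pancreatic-type ribonuclease, was at 3.82, 3.80, 4.03 and 3.89 in knockout and at 3.47, 3.55 and 3.72 in wild type. The groups were separated by 0.09, and the difference of 0.31 (SE 0.13) did not pass (limma adjusted p = 0.9995). Ang, which encodes angiogenin, a secreted ribonuclease that induces vessel growth, was at 7.03, 6.56, 7.31 and 6.45 in knockout and at 6.32, 5.64 and 5.76 in wild type. The difference of 0.93 (SE 0.27) did not pass over all genes either (limma adjusted p = 0.9995). Rnase4, a ribonuclease gene that overlaps Ang in RefSeq, was at 4.47 to 5.20 in knockout and at 7.81, 5.87 and 3.97 in wild type. Its wild type arrays thus spanned the knockout range, and its difference was -0.87 (SE 0.80; limma adjusted p = 0.9995).

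The other measured neighbours overlapped between genotypes. On the far side of Rnase2b from Rnase1, Ang2, an angiogenin relative, differed by 0.02 (SE 0.18), and Ear14, a further family member, by 0.15 (SE 0.41), both below the array median on all 7 arrays. Rnase6, a ribonuclease of myeloid cells on the same side as Rnase1, lay between 4.54 and 5.97 and differed by 0.22 (SE 0.34). Of the 14 measured genes in the list of other ribonuclease A genes and their inhibitor, 11 had a higher and 3 a lower mean in knockout, with a median of 0.13. Over all genes the median was 0.01, and 51.7% had a higher mean in knockout. Of the 14, 2, Ang and Rnase1, did not overlap between genotypes, against 1.91% of all genes, and the list was not tested as a set. In limma, 0 of the 14 passed at an adjusted p under 0.05, where 0.00431% of all genes did, and 1, Ang, had an unadjusted p under 0.05, against 1.88% of all genes. Rnh1, the cytosolic ribonuclease inhibitor, differed by -0.20 (SE 0.21).

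**Figure D2:**
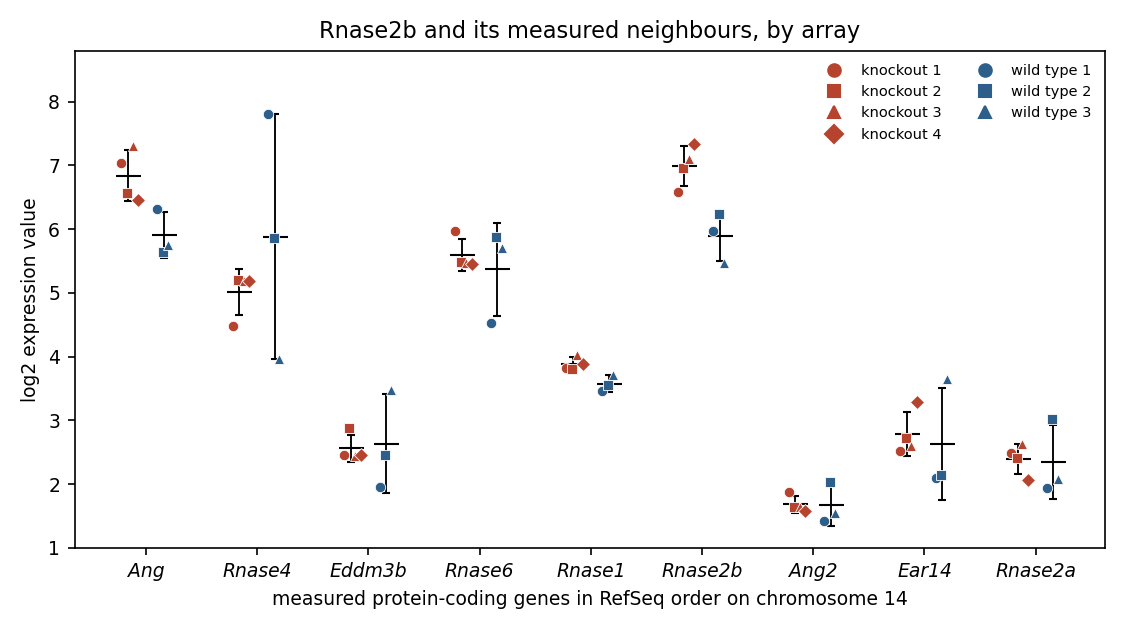
Log2 expression value (y axis) of Rnase2b and 8 measured protein-coding neighbours in RefSeq order on chromosome 14 (x axis, not to scale), with each array as a point and bars at the mean ± SD. Ang, Rnase1 and Rnase2b have all knockout points (red) above all wild type points (blue), and Rnase4 has the widest wild type spread.

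The granule protein genes Prg2 and Epx were dim and overlapped between genotypes. Prg2 was at 3.18, 2.86, 2.51 and 3.41 in knockout and at 2.21, 2.67 and 2.97 in wild type. The highest array was knockout replicate 4 and the lowest wild type replicate 1, with knockout replicate 3 below 2 of the wild type arrays. The difference was 0.38 (SE 0.27), the next largest of the set, and it stayed between 0.17 and 0.55 with single arrays left out. Epx was at 2.71, 2.71, 2.80 and 2.59 in knockout and at 2.17, 2.48 and 3.48 in wild type. The knockout values lay within 0.21 of each other and inside the wild type range, and the difference was -0.01 (SE 0.30). It was 0.38 without wild type replicate 3 and -0.28 without wild type replicate 1.

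Siglecf and Alox15 did not separate the genotypes either. Siglecf was at 3.38 on knockout replicates 1, 2 and 3, exactly the same value, and at 2.92 on replicate 4, against 3.15, 3.31 and 3.53 in wild type. Its difference was -0.07 (SE 0.18). Alox15 was at 3.67, 3.67, 3.92 and 3.31 in knockout and at 3.39, 3.14 and 4.00 in wild type, a difference of 0.14 (SE 0.24). It was above the array median on 4 of 7 arrays, the only member besides Rnase2b above it on any. Identical values on several arrays can arise in the median polish of the authors' summary, and between 2.66% and 10.8% of genes had the same value in the 21 pairs of arrays.

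Apart from Rnase2b, the measured members thus had differences from -0.07 to 0.38 with a median of 0.09, 4 higher and 2 lower. Wild type replicate 3 was the highest array for 4 of these 6 genes, and the lowest was wild type replicate 1 for 4. Among all 13195 genes with a mean log2 value from 2 to 4, wild type replicate 3 was highest for 39.5% and wild type replicate 1 lowest for 50.4%. Their median deviations in that range were -0.24 (replicate 1) and 0.16 (replicate 3). The part of these array differences in the members' values was not tested.

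**Figure D3:**
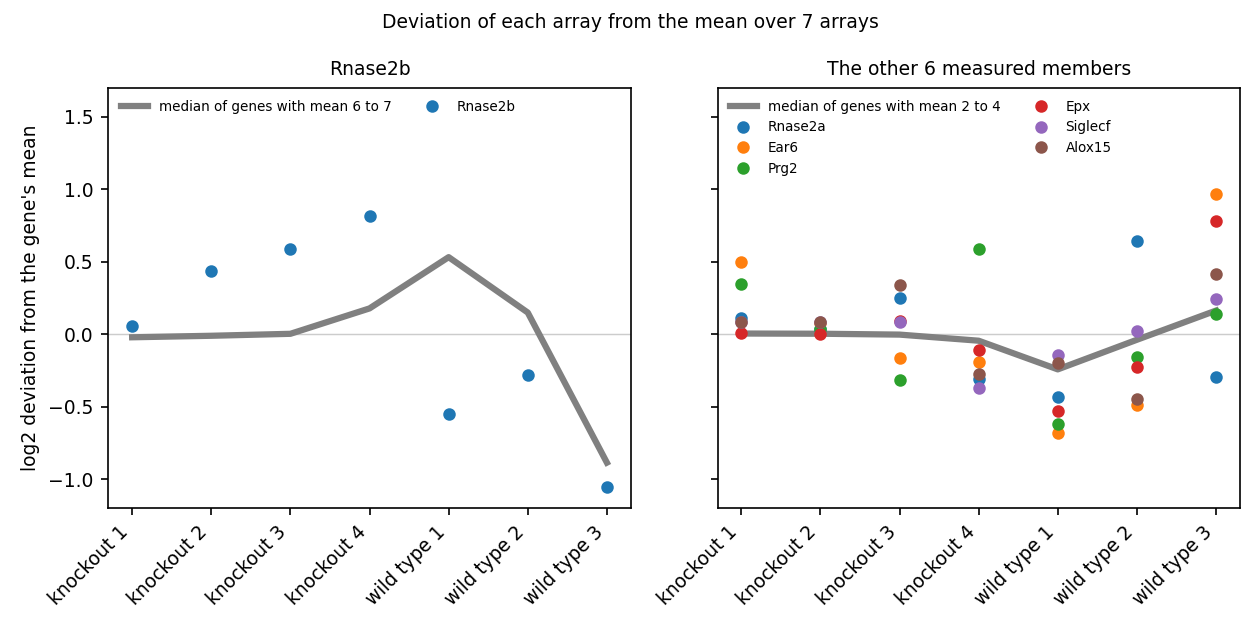
Deviation of each array (x axis) from the gene's mean over the 7 arrays (y axis, log2), for Rnase2b on the left and the other 6 measured members on the right, with grey lines at the median deviation of genes of like brightness. Rnase2b lies below the grey line on all 3 wild type arrays, while the dim members scatter around it and are mostly low on wild type replicate 1.

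Apart from Rnase2b, the measured eosinophil markers lay below the array medians. Of 11 eosinophil markers, 9 were measured, and 8 of these, Rnase2b being the exception, were below the array median on all 7 arrays. They include Ccr3, the eotaxin receptor, at 2.05 to 2.26 in knockout and 2.01 to 2.11 in wild type, and Il5ra, the receptor subunit for interleukin 5, at 2.37 to 2.39 and 2.09 to 2.46. Prg3, the homologue of major basic protein, differed by 0.27 (SE 0.22). The mean log2 value of the 8 markers was 2.53 to 2.78 in knockout and 2.17, 2.56 and 2.84 on the 3 wild type arrays, so the groups overlapped. The markers split into 6 higher and 2 lower, with a median difference of 0.06. Of the 8, 0 separated the genotypes, against 1.91% of all genes. Brightness also depends on the probes, so a dim probe set does not show that its transcript was missing.

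Ligands that attract or support eosinophils were measured in 13 of 13 cases, and none passed limma at an adjusted p or had an unadjusted p under 0.05. Of all genes, 0.00431% passed and 1.88% had an unadjusted p under 0.05. The ligand means were higher in knockout for 11 and lower for 2, with a median of 0.13. Ccl11, eotaxin-1, was bright on all arrays at 6.41 to 7.12 in knockout and 6.22 to 6.80 in wild type, a difference of 0.20. Tslp, an epithelial cytokine of type 2 immunity, was at 5.92 to 6.20 in knockout and at 4.28, 5.92 and 5.92 in wild type, with wild type replicate 1 alone far from the rest, and it differed by 0.69 (SE 0.40). Ccl7, a monocyte and eosinophil chemokine, differed by -0.76 (SE 0.59), and Il5, the main eosinophil growth factor, by 0.11 with all values below the array medians. Il13 was at 4.41 to 4.80 in knockout and at 3.86, 4.08 and 4.93 in wild type.

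Receptors and lineage transcription factors showed no separation. Among 13 measured receptor genes, 6 were higher and 7 lower, with a median of -0.05, and Pirb, an inhibitory receptor, had the smallest p at a difference of -0.51 (SE 0.24; limma adjusted p = 0.9995). Among 12 transcription factors, 8 were higher and 4 lower, with a median of 0.08. Cebpa, needed for granulocyte progenitors, differed by 0.46 (SE 0.24; limma adjusted p = 0.9995) and Gata2 by 0.20 (SE 0.13). The list of peroxidase, granule and Siglec relatives had 9 higher and 3 lower of 12, median 0.09, and Srgn, the granule proteoglycan serglycin, differed by 0.46 (SE 0.35). The other lipoxygenase and eicosanoid genes had 4 higher and 7 lower of 11, median -0.09, among them Alox5ap, which activates 5-lipoxygenase, at -0.51 (SE 0.36). Over these 6 lists together, 75 genes were measured and 0 passed in limma, while 1 had an unadjusted p under 0.05. Over all genes, 0.00431% passed and 1.88% had an unadjusted p under 0.05.

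**Figure D4:**
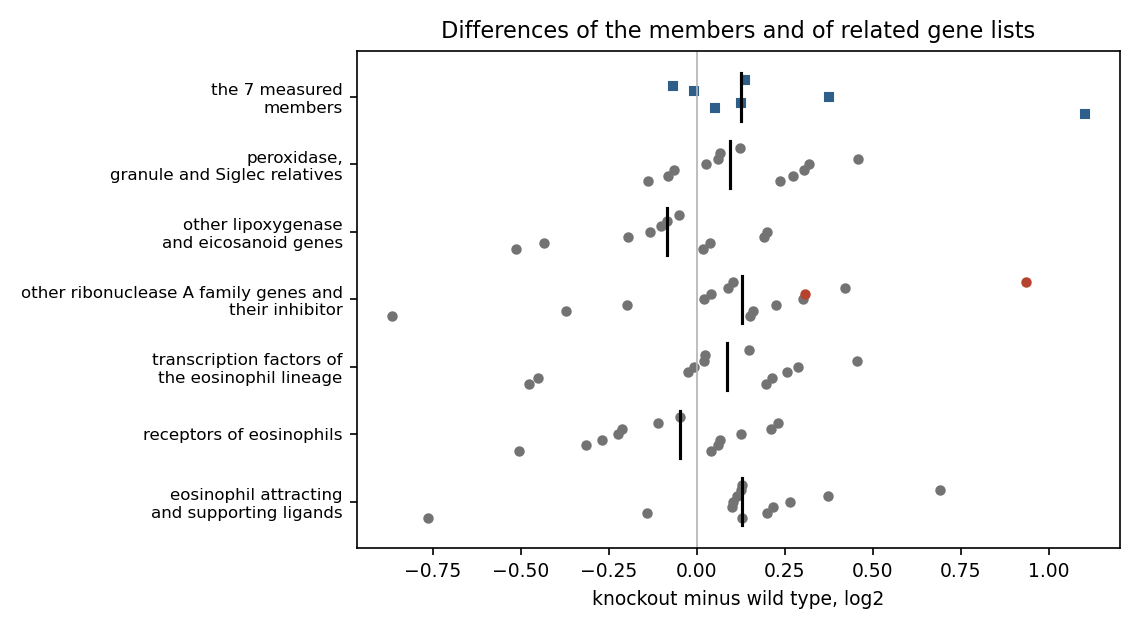
Difference between genotypes (x axis, knockout minus wild type, log2) for the genes of 6 related lists (circles) and the 7 measured members (squares), with a black line at each median. Red circles are Ang and Rnase1, whose knockout arrays all lie above the wild type arrays, and Rnase2b is the square at 1.10.

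Markers of blood and of other cells were read beside Rnase2b. Hbb-b1, an adult beta-globin chain, also lay higher in knockout on every array, at 9.27 to 10.28 against 6.34 to 6.62, and was the only gene that passed limma over all genes (adjusted p = 0.0468). With any 1 of the 7 arrays left out, 0 genes passed. Hbb-bs, the other measured beta-globin gene of the list, was at 1.88 to 2.19 in knockout and 1.97 to 2.03 in wild type. Its difference was 0.01 (SE 0.13). Of 6 measured red cell genes 5 had a higher mean, and their mean log2 value was 4.18 to 4.33 in knockout and 3.42 to 3.87 in wild type. Without Hbb-b1 the mean of the other 5 was 3.13 to 3.18 in knockout, inside the wild type range of 2.78 to 3.38. Platelet genes were higher in 5 of 5, with list means of 4.60 to 4.82 and 4.06 to 4.88. The part of blood RNA in the Rnase2b difference was not tested.

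Other leukocyte lists overlapped between genotypes in their mean values. Mast cell genes were higher in 7 of 10 measured members, at list means of 3.75 to 3.89 in knockout and 3.45 to 3.87 in wild type. Basophil genes were higher in 5 of 5, at 2.71 to 2.86 and 2.53 to 2.71, but all 5 had means below the median gene. Neutrophil genes were higher in 5 of 11, at 3.60 to 4.24 and 3.84 to 3.87. Macrophage genes were higher in 1 of 9 and lower in 8, at 4.71 to 5.10 and 4.57 to 5.36. T cell genes were higher in 3 of 7, at 3.48 to 3.62 and 3.44 to 3.55. For skeletal muscle, 6 of 6 genes had higher means, at 7.89 to 9.69 in wild type and from 9.43 upward in knockout, with wild type replicate 3 the lowest. In these 6 lists 0 members passed in limma, where 0.00431% of all genes did. The part of these cell types in the Rnase2b difference was not tested.

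Within those lists, 3 genes lay higher in knockout without overlap, 2 of 7 T cell genes and 1 of 11 neutrophil genes. Over all genes, 1.10% lay higher without overlap and 1.88% had an unadjusted p under 0.05 in either direction. Cd3d, a chain of the T cell receptor complex, was at 3.15 to 3.64 in knockout and at 2.66 to 3.01 in wild type, a difference of 0.58 (SE 0.18; limma unadjusted p = 0.013, adjusted p = 0.9995). Cd3g, a further chain of that complex, was at 4.27 to 4.39 and at 3.83 to 4.25, a difference of 0.22 (SE 0.15). Retnlg, a resistin-like gene of neutrophils, was at 3.15 to 3.20 and at 2.72 to 2.99, a difference of 0.30 (SE 0.13; limma unadjusted p = 0.049, adjusted p = 0.9995) with all values below the array medians.

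Among all 23185 genes, the 5 whose values ran most like those of Rnase2b over the 7 arrays include none of the set. By Pearson's r, as a description over arrays that share the 2 genotypes, they were Serpinb6c (0.97), a serine protease inhibitor, Myl1 (0.96), a muscle myosin light chain, Lce6a (0.96), a late cornified envelope gene, Plekhf2 (0.95) and Sptlc3 (0.95), a subunit of the enzyme that begins sphingolipid synthesis. Without wild type replicates 1 and 3 these values were 0.99, 0.88, 0.86, 0.99 and 0.82 over 5 arrays. For the other members r with Rnase2b was 0.35 for Prg2, 0.19 for Rnase2a, -0.14 for Alox15, -0.30 for Ear6, -0.31 for Epx and -0.49 for Siglecf. Without wild type replicates 1 and 3 these were, in the same order, 0.33, -0.83, 0.38, 0.05, 0.49 and -0.54, so several signs turned. For Prg2 the most alike were Mir217 (0.98), Prss47 (0.97), Olfr819 (0.96), Nicn1 (0.96) and Got1l1 (0.96), and these 5 genes include none of the set. Both rankings rest on 7 arrays, and that of Rnase2b uses the values that chose the set. No cell type is read from them.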

How the data were processed

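Per the labels' protocols, total RNA of lesional skin was hybridised to Affymetrix arrays (7 samples, 7 arrays). The authors deposited log2 expression values after RMA, per the submitters' processing notes; the RMA version, genome build and definition of probe sets are not given in the sources used here. Of 25206 probe sets, the platform annotation gave 23185 a single symbol, 0 several and 2021 none (unnamed here); all 23185 were found by Entrez number in the RefSeq table of GRCm38.p6, and each gene had 1 probe set. The values were used as deposited, without a filter or further normalization. Genotypes, taken from the titles, were compared in R 4.3.3 with limma 3.58.1 (lmFit and eBayes, two-sided, Benjamini-Hochberg over 23185 genes, threshold 0.05), tested on simulated data. Differences are knockout minus wild type with limma's SE. Precision is limited by the number of arrays and by the spread among wild type arrays. The median SD of a gene over all genes was 0.39 in wild type and 0.19 in knockout, and limma fitted a common variance.

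The members and lists were chosen with earlier results of these data known. Besides the members, Hbb-b1 and Tnfsf4, the genes eligible to be named were up to 4 of each of 16 lists by smallest p and the 5 most correlated with Rnase2b or Prg2. Ccl11, Il5, Il13, Rnase4, Rnase6, Ang2, Ear14, Rnh1, Ccr3, Il5ra and Hbb-bs were named for their role or position after their values were seen. Upstream sequences were aligned with Biopython 1.88 (global, free end gaps), identity being counted over aligned bases. The alternatives were other moderation, a filter on dim genes, other normalizations, array weights, blocks, all probe sets and arrays left out. Figures were drawn with matplotlib 3.10.9 in Python 3.11.15.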

Additional observations from a re-analysis of the deposited data

Results flagged for a closer look

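Siglecf on knockout replicate 4 (2.92) stood apart from the other 3 knockout arrays, which all had the value 3.38. The gap was the whole range of the group, a ratio of 1.0, above Dixon's 95% critical value for 4 samples. Such a value arises by chance in about 1 in 20 groups, and 7 genes were checked. When the other samples share an identical value, any departure gives this ratio.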

How the results depend on the processing

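Rnase2b was chosen as higher in knockout and its genotypes do not overlap, so leaving out or weighting arrays could not turn its sign. Nothing is therefore read from that sign. The Rnase2b difference of 1.10 was positive in all 16 alternatives, from 0.75 to 1.64. It moved by more than the spread between arrays with limma's array weights (0.75) and with the number in the sample codes as a block (1.64), where wild type replicate 3 and knockout replicate 3 are the only arrays of different genotype that share a number (18). Knockout replicates 1 and 2 share the number 16 and wild type replicates 1 and 2 the number 17, and whether a shared number marks a shared animal is not stated in the labels. It was 0.99 with the replicate number as a block, although same-numbered samples did not deviate together (correlations of -0.09, -0.15 and 0.03) and were not taken as pairs. It was 1.17 after quantile normalization again and 0.76 with wild type replicates 1 and 3 both left out; single arrays left out gave 0.89 to 1.28. The signs of the other members turned in several alternatives: Rnase2a in 6, Epx in 5, Ear6 in 4, Siglecf in 3, Alox15 in 2 and Prg2 in 1, the block on the code number, where it was -0.45.

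Of all genes 1, Hbb-b1, passed in limma, and it is also the 1 of 144 list genes that passed. Both counts were 1 without the dimmest 30% of genes, a filter that also removed Rnase2a, Ear6, Prg2 and Epx. They were 0 with an intensity trend and robust moderation, quantile normalization again, centring on array medians, the replicate block, the code block, all probe sets, or both wild type arrays left out, and 0 to 0 with single arrays left out; the cause was not tested. With an unadjusted p under 0.05 the counts were 436 and 4. With array weights they were 4032 and 31, in a fit that gave wild type replicate 2 a weight of 75.4 and wild type replicates 1 and 3 weights of 0.11 each, and whose weights did not reach their convergence tolerance.

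Most member values lie below the array medians, 38 of 42 outside Rnase2b, and small differences in them were not detectable with 7 arrays.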
